A study of Homo sapiens with 44 samples.

Results

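MicroRNA genes and the transcripts that carry them were followed in ZR-75-1, an established breast cancer cell line with estrogen and progesterone receptors, across 44 Affymetrix arrays in 14 groups. Members were chosen by name alone: every annotated symbol made of MIR and a number or of MIRLET7, including host genes whose symbols end in HG. A symbol was kept when its brightest transcript cluster exceeded the 30th percentile of all values of an array, on 3 or more arrays. Of 1098 such symbols, 636 were kept, 21 of them with names ending in HG, and 462 were left out. They were among 13466 named genes and 41374 clusters that passed the same filter.

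The hormone overlays were given to cells pretreated with 10 nM estradiol (E2) for 72 h, which are called E2p. They held 10 nM E2 with 10 nM medroxyprogesterone acetate (MPA) for 16 h (E2+MPA, 3 arrays), 10 nM E2 with 10 nM progesterone (P4) for 16 h (E2+P4, 5 arrays), 10 nM E2 alone for 16 h (3 arrays), 10 nM MPA for 4, 8 or 16 h (3 arrays each) or 10 nM P4 for 4, 8 or 16 h (3 arrays each). The E2p controls had ethanol vehicle (VC) as overlay for 0, 4, 8 or 16 h (3 arrays each), and unprimed cells had vehicle for the 72 h and for a further 16 h (3 arrays). Hormones were added to the medium already on the cells, so E2p cells stayed in the E2 of the pretreatment. The paper states that treatments were timed in reverse, so that samples of all overlay lengths were collected together. MPA is a synthetic relative of P4 with an extra methyl group and an extra acetoxy group. All cells are of 1 line. No source used here says that replicates were cultures of their own beyond separate wells, and p-values therefore rest on a spread between samples that may be technical.

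MicroRNAs are short RNAs cut from the hairpin of a longer primary transcript, and they pair with messenger RNAs through a seed near their 5′ end, which lowers stability or translation of the target. Many lie inside introns of host genes or are clustered on 1 primary transcript. The miR-21 locus lies in VMP1 and has a promoter of its own, and miR-21 is abundant in many carcinomas. The arrays measured labelled RNA against probes in the gene or hairpin region. A level of a microRNA gene therefore describes its precursor transcripts, and how much mature microRNA was present was not measured. Probes on a short hairpin cannot tell a primary transcript from the RNA of a host gene that spans it.

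RefSeq annotation (GRCh38.p14) held a microRNA entry for 574 of the 636 members, and 62 had none. The mature sequences of the members that carry the results below are shown with the seed, bases 2 to 8, in capitals, 5′ to 3′, to show which changed genes share a seed. The first line is the microRNA of the gene with the largest increase with progestin, MIR21. The next 2 are those of the locus with the largest decrease at 4 h, where the miR-181a gene of that locus (MIR181A1) was not a measured member. MIR181A2 on chromosome 9, which encodes the same mature miR-181a, was measured.
hsa-miR-21-5p: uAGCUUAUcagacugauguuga
hsa-miR-181b-5p: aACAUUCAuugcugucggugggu
hsa-miR-181a-5p: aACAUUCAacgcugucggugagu
The next pair comes from neighbouring hairpins on chromosome X, and the seeds share their first 6 bases.
hsa-miR-424-5p: cAGCAGCAauucauguuuugaa
hsa-miR-503-5p: uAGCAGCGggaacaguucugcag
Those below belong to further genes called at 1 or more times with a progestin whose levels are given below, set beside relatives by seed where there are any. Other called genes are not shown.
hsa-miR-29c-3p: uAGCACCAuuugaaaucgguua
hsa-miR-141-3p: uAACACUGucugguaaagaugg
hsa-miR-24-3p: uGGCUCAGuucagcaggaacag
hsa-miR-635: aCUUGGGCacugaaacaaugucc
hsa-miR-500a-3p: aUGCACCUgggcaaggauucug
hsa-miR-501-3p: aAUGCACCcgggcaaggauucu
hsa-miR-196a-5p: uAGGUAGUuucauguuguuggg
hsa-miR-196b-5p: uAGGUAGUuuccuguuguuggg
hsa-miR-205-5p: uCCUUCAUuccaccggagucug
hsa-miR-449a: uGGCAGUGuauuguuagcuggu
hsa-miR-449c-5p: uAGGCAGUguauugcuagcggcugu
hsa-miR-4429: aAAAGCUGggcugagaggcg
hsa-miR-3671: aUCAAAUAaggacuagucugca

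Mature miR-21-5p maps to chr17:59841273-59841294 on the plus strand, inside VMP1. The MIR181B1 copy of miR-181b-5p maps to chr1:198858925-198858947 on the minus strand, inside the noncoding gene MIR181A1HG. MIR424 and MIR503 lie on the minus strand of chromosome X, with miR-424-5p at chrX:134546680-134546701 and miR-503-5p at chrX:134546371-134546393. MIR503 lies inside the noncoding gene MIR503HG.

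The 44 arrays had medians of 5.52 to 5.67 log2 and interquartile ranges of 2.89 to 3.14. The epithelial markers KRT8, KRT18, KRT19, EPCAM and GATA3 and the receptor genes ESR1 and PGR were above the 30th percentile of the array, which lay between 4.47 and 4.60, on all 44 arrays, and the fibroblast genes DCN and LUM on 0. Genes listed for immune or endothelial cells (CD68, LYZ, VWF, KDR and PECAM1) were above it on 43 or 44 arrays, and their part in the results was not tested. Replicate 1 of the 4 h vehicle lay a median of 0.202 above the mean of its group over the members, the widest such shift of the 44 arrays, with 0.144 for replicate 3 of the 16 h vehicle next.

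With either progestin, a smaller share of microRNA genes than of all features was called in the main fit. P4 against vehicle called 35 of the 636 members at 4 h (5.5%), by limma's moderated t-statistic at an adjusted p of at most 0.05, beside 7.9% of all 41374 clusters. Of these, 21 were higher and 14 lower, beside 4.55% and 3.35% of clusters. P4 called 31 members at 8 h (4.87%, beside 13.3%), 21 higher and 10 lower (beside 6.06% and 7.22%), and 33 at 16 h (5.19%, beside 15.8%), 21 higher and 12 lower (beside 7.91% and 7.92%). Among named genes the shares were 12.3%, 21.3% and 25.4%. MPA against vehicle called 25 members at 4 h (beside 8.28%), 16 higher and 9 lower (beside 4.16% and 4.12%). It called 33 at 8 h (beside 14.3%), 23 higher and 10 lower (beside 6.3% and 7.96%), and 31 at 16 h (beside 16%), 19 higher and 12 lower (beside 6.72% and 9.26%). In cell populations such as these, fewer cells with a transcript and less of it per cell cannot be told apart. The median change of the members lay between -0.02 and 0.11 on the log2 scale in these 6 comparisons, and that of all clusters between -0.03 and 0.02. Replicate 1 of the 4 h vehicle set part of the 4 h counts, which were 22 for P4 and 57 for MPA without it. The MPA count at 16 h was 48 without replicate 3 of the 16 h vehicle. With the interquartile range of each array as a covariate the counts were 55, 52 and 57 for P4 and 29, 54 and 57 for MPA at 4, 8 and 16 h. With only the compared arrays in the fit they were 7, 43 and 22 for P4 and 6, 30 and 11 for MPA. No share of all clusters was computed under these settings or with an array left out. The lower share of members therefore describes the main fit alone.

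**Figure D1:**
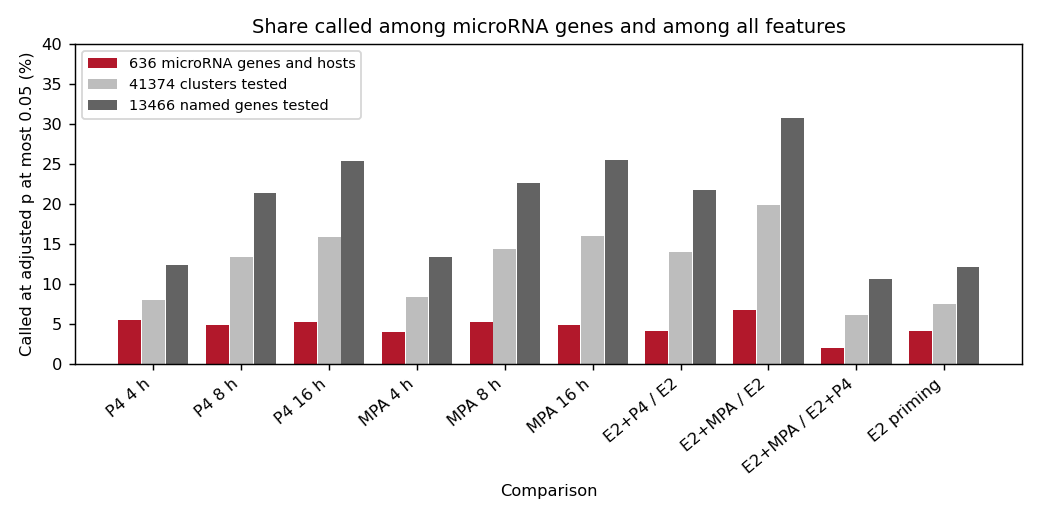
Bars show the percentage called at an adjusted p of at most 0.05 among the 636 microRNA genes and host transcripts, among all 41374 clusters tested and among the 13466 named genes tested, for 10 comparisons on the horizontal axis. The bar of the members is the lowest in each of these comparisons, for example 5.19% with P4 at 16 h against 15.8% of clusters and 25.4% of named genes.

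MIR21 had the highest increase of all members called with either progestin at each time. It had 8.97, 9.08 and 9.31 after 4 h of P4, against 5.95, 6.40 and 6.83 after 4 h of vehicle. It had 9.45, 9.63 and 10.00 after 8 h of P4, against 6.22, 6.58 and 6.11 with vehicle. It had 9.62, 9.40 and 9.71 after 16 h of P4, against 6.67, 6.27 and 5.68 with vehicle. No vehicle array came within a log2 unit of any P4 array at the same time. By limma, the log2 change after 4 h was 2.73 ± 0.27 (SE of the fit; 6.62-fold; adjusted p = 1.88e-09). After 8 h it was 3.38 (10.4-fold; adjusted p = 8.25e-12), and after 16 h it was 3.37 (10.3-fold; adjusted p = 7.56e-12).

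MPA gave MIR21 levels of 9.76, 8.72 and 8.77 at 4 h, 9.35, 9.35 and 9.52 at 8 h and 9.56, 9.58 and 9.71 at 16 h, against the same vehicle arrays. The 3 times again stood apart from vehicle, with replicate 1 the highest of the 4 h arrays. The log2 change was 2.69 after 4 h, 3.10 after 8 h and 3.41 after 16 h. In E2p cells that had only vehicle, MIR21 levels were 6.90, 7.19 and 6.99 at 0 h, and the mean was 6.39 ± 0.44 at 4 h, 6.31 ± 0.24 at 8 h and 6.21 ± 0.50 at 16 h (SD, n = 3). Its change over vehicle time was not among the calls of the F-statistic.

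**Figure D2:**
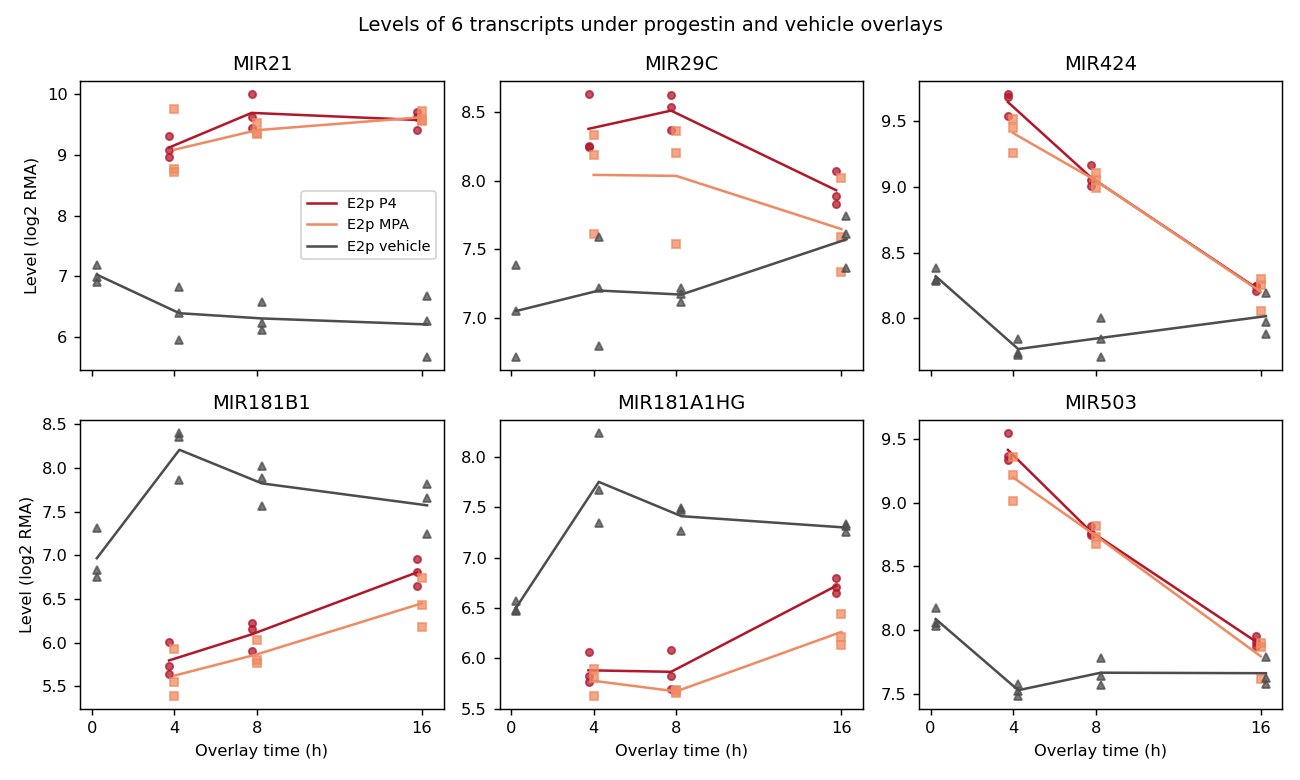
Array levels on the log2 scale (vertical axes) of MIR21, MIR29C, MIR424, MIR181B1, MIR181A1HG and MIR503 against overlay time in h, with P4, MPA and vehicle as points and lines through group means. MIR21 stayed high with progestin at 16 h, MIR424 and MIR503 were near vehicle by 16 h, and MIR181B1 and MIR181A1HG were lowest at 4 and 8 h.

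MIR590, the other measured member whose mature microRNA carries the seed of miR-21-5p, was not called with a progestin. Its log2 change was 0.65 with P4 at 4 h (adjusted p = 0.259) and 0.12 at 16 h (adjusted p = 0.887). VMP1, the gene around MIR21, encodes a membrane protein of autophagy. VMP1 levels lay between 12.37 and 12.45 after 4 h of P4 and between 12.33 and 12.42 after vehicle, and between 12.64 and 12.71 after 16 h of P4 and between 12.36 and 12.47 after vehicle. The log2 change of VMP1 was 0.23 at 16 h (adjusted p = 0.00239), against 3.37 for MIR21 on the same arrays.

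MIR181B1 and its host MIR181A1HG had the strongest decreases of all members called at 4 and 8 h with either progestin. The miR-181 microRNAs are known for roles in lymphocyte development and differentiation. MIR181B1 had 5.74, 6.01 and 5.64 after 4 h of P4, against 7.87, 8.36 and 8.40 with vehicle. It had 6.22, 5.90 and 6.16 after 8 h of P4, against 7.57, 8.02 and 7.88 with vehicle. It had 6.65, 6.80 and 6.96 after 16 h of P4, against 7.82, 7.66 and 7.25 with vehicle. The P4 arrays were lower than every vehicle array at each time. The log2 change after 4 h was -2.41 ± 0.18 (5.33-fold lower; adjusted p = 2.42e-12). It was -1.73 after 8 h and -0.77 after 16 h (adjusted p = 0.00166).

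MIR181A1HG had 5.82, 6.06 and 5.76 after 4 h of P4, against 7.34, 7.68 and 8.24 with vehicle, and 6.71, 6.65 and 6.80 after 16 h of P4, against 7.33, 7.25 and 7.32 with vehicle. The groups did not overlap at either time, and the gap was narrower at 16 h. Its log2 change was -1.87 after 4 h, -1.55 after 8 h and -0.58 after 16 h (adjusted p = 0.0056). With MPA the changes were -2.59, -1.96 and -1.12 for MIR181B1 and -1.98, -1.74 and -1.04 for MIR181A1HG at 4, 8 and 16 h. Both were called at each time with each progestin.

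The decrease was smaller at 16 h than at 4 h by a test of the difference itself. The change with P4 at 16 h minus that at 4 h was 1.64 for MIR181B1 (adjusted p = 2.34e-05) and 1.29 for MIR181A1HG (adjusted p = 7.34e-05), and with MPA it was 1.47 and 0.94. Vehicle moved too. MIR181B1 had 6.83, 6.75 and 7.32 at 0 h of vehicle, and its change from 0 h was 1.24, 0.86 and 0.61 after 4, 8 and 16 h (F-statistic, adjusted p = 0.000195), while that of MIR181A1HG was 1.25, 0.91 and 0.79 (adjusted p = 1.15e-05). The MIR181B1 arrays after 4 h of P4 were also below all 3 arrays at 0 h, whereas those after 16 h of P4 overlapped them. The MIR181A1HG arrays after 16 h of P4, between 6.65 and 6.80, lay above all 3 at 0 h, which were between 6.47 and 6.57. Fitted on the compared arrays alone, the MPA difference of MIR181B1 had an adjusted p of 0.0514 and that of MIR181A1HG 0.185.

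Of 8 genes listed for the family, 7 were tested, and 2 were lower with P4 at each time, the pair above. MIR181B2, which encodes the same mature miR-181b from chromosome 9, read -0.04 at 4 h and 0.17 at 16 h of P4. MIR181C, MIR181D and MIR181A2HG were called in none of the P4 or MPA comparisons, with log2 changes between -0.24 and 0.21. MIR181A2 was called higher with MPA at 4 h (0.94, adjusted p = 0.0324), but it was at or under the 30th percentile on every 4 h vehicle array, so that it was at least 1.03-fold higher, and the call was lost without replicate 2 of the 4 h vehicle (0.41, adjusted p = 0.442) and without any of the 3 MPA arrays (adjusted p between 0.0669 and 0.0874).

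MIR424 and MIR503 moved as a pair, high at 4 h and back by 16 h. miR-424 belongs to the miR-15/16 seed family, which is known to restrain cyclins and the G1 phase. MIR424 had 9.69, 9.70 and 9.54 after 4 h of P4, against 7.72, 7.74 and 7.84 with vehicle. MIR503 had 9.36, 9.54 and 9.33 after 4 h of P4, against 7.58, 7.52 and 7.48 with vehicle. Every P4 array exceeded every vehicle array by more than a log2 unit. The log2 changes were 1.88 ± 0.12 for MIR424 (3.67-fold; adjusted p = 4.47e-14) and 1.89 for MIR503 (adjusted p = 4.83e-14), the smallest p-values among members at that time.

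At 8 h MIR424 had 9.05, 9.01 and 9.16 with P4, against 8.00, 7.85 and 7.71 with vehicle, a change of 1.22. At 16 h it had 8.25, 8.21 and 8.25 with P4, against 8.19, 7.88 and 7.98 with vehicle, and the change of 0.22 was not called (adjusted p = 0.256). MIR503 had a change of 1.11 at 8 h and, not called, of 0.25 at 16 h (adjusted p = 0.176). With MPA the changes were 1.64, 1.20 and 0.18 for MIR424 and 1.67, 1.08 and 0.13 for MIR503, those at 16 h not called. The change at 16 h minus that at 4 h was -1.66 for MIR424 and -1.64 for MIR503 with P4, and -1.45 and -1.54 with MPA, all 4 called.

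The miR-424 seed is shared by 7 measured members, MIR15A, MIR15B, MIR16-1, MIR16-2, MIR195, MIR424 and MIR497, and only MIR424 was called with P4 or MPA at 4, 8 or 16 h. The log2 changes of the other 6 with P4 at 4 h lay between -0.05 (MIR15A) and 0.45 (MIR15B). With vehicle alone both genes of the pair were lower at 4 h than at 0 h, with changes of -0.55 for MIR424 and -0.56 for MIR503. After 4 h of P4 both were still above every 0 h array, which read 8.29, 8.38 and 8.29 for MIR424 and 8.03, 8.05 and 8.17 for MIR503.

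MIR29C, whose family targets collagen and other matrix transcripts, was higher early. It had 8.25, 8.63 and 8.26 after 4 h of P4, against 6.79, 7.22 and 7.59 with vehicle, and 8.37, 8.62 and 8.54 after 8 h of P4, against 7.11, 7.17 and 7.22 with vehicle. The groups were apart at both times. The log2 change was 1.18 after 4 h (adjusted p = 0.000106; 0.063 with only the compared arrays in the fit), 1.34 after 8 h and 0.36 after 16 h, where it was not called. MPA gave 0.84, 0.87 and, not called, 0.07. Its host noncoding gene MIR29B2CHG was not measured, and MIR29B2, with the same seed, read 1.15 with P4 at 4 h without a call (adjusted p = 0.168).

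Within the miR-200 family, which holds down the ZEB repressors and marks epithelial cells, 5 genes were tested and MIR141 alone was called in a comparison of P4 or MPA with vehicle. MIR141 had 8.01, 8.30 and 8.13 after 4 h of P4, against 6.49, 7.37 and 7.66 with vehicle. The groups did not overlap, and the lowest vehicle array was replicate 1. The log2 change was 0.98 at 4 h (adjusted p = 0.000249), and 0.49 at 8 h and 0.32 at 16 h were not called, whereas MPA called it at 4 h (0.89) and 8 h (0.63). MIR200A, MIR200B, MIR200C and MIR429 read 0.30, 0.08, 0.61 and 0.21 at 4 h, none called. MIR17HG, the host of the miR-17 cluster and the only gene on its list that was tested, read -0.09, 0.38 and 0.19 with P4 without a call.

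Members that stayed higher at all 3 times of P4 were MIR21, MIR24-2, MIR500A and MIR635. At 4 h of P4 the adjusted p by limma was 0.0315 for MIR24-2, 0.00801 for MIR500A and 0.01 for MIR635. Unlike that of MIR21, these 4 h calls were not retested with arrays left out or under the alternatives. MIR24-2 lies in the miR-23a cluster. It had 6.63, 6.93 and 6.83 after 4 h of P4, against 6.14, 6.47 and 6.49 with vehicle, and 6.96, 7.05 and 7.14 after 16 h of P4, against 6.32, 6.42 and 6.34 with vehicle. The groups did not overlap, and the change was 0.43, 0.50 and 0.69 at 4, 8 and 16 h. MPA gave 0.57, 0.45 and 0.71. The neighbour MIR27A was called with MPA at 8 h (0.40) and 16 h (0.44) but not with P4. MIR23A, also measured in this cluster, was called with neither progestin at any of these times.

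MIR635 lies inside WIPI1, which was not measured. It had 6.37, 7.04 and 6.61 after 4 h of P4, against 5.49, 5.59 and 6.23 with vehicle, and 6.86, 6.70 and 6.57 after 16 h of P4, against 5.83, 5.83 and 5.18 with vehicle. Every P4 array was higher. Changes were 0.90, 1.21 and 1.10 with P4 and 0.95, 1.18 and 0.81 with MPA. The MPA call at 4 h was lost without replicate 1 of the MPA arrays (0.64, adjusted p = 0.1), and that at 16 h without replicate 3 of the vehicle (0.59, adjusted p = 0.111) or of MPA (0.73, adjusted p = 0.0583).

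MIR500A and MIR501 lie in CLCN5, a chloride channel gene on chromosome X that was not measured, and the seed of miR-501-3p is that of miR-500a-3p shifted by a single base. MIR501 had 6.40, 6.50 and 6.64 after 4 h of P4, against 5.42, 5.62 and 4.76 with vehicle, without overlap. Its change was 1.24 after 4 h (adjusted p = 0.000911; 0.0576 with only the compared arrays in the fit), 1.09 after 8 h and 0.52 after 16 h, the last not called. MIR500A had changes of 0.97, 0.83 and 1.00 with P4 and of 0.88 at 8 h (adjusted p = 0.0111) and 0.70 at 16 h (adjusted p = 0.0461) with MPA. Its MPA call at 8 h was lost without replicate 1 of MPA (0.74, adjusted p = 0.0812) or replicate 2 of the vehicle (0.75, adjusted p = 0.0795).

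Members lower at all 3 times of P4 were MIR181A1HG, MIR181B1 and MIR196A2, and of MPA MIR181A1HG, MIR181B1, MIR196B, MIR205 and MIR449C. The miR-196 genes lie in the HOX clusters, and their microRNAs target HOX transcripts. MIR196A2 had 4.97, 5.48 and 5.25 after 4 h of P4, against 6.08, 6.06 and 6.64 with vehicle, and 5.50, 5.18 and 5.69 after 8 h of P4, against 6.55, 6.46 and 6.57 with vehicle. The P4 arrays were lower in each case, with changes of -1.03 (adjusted p = 9.6e-05; 0.0769 with only the compared arrays in the fit), -1.07 and -0.60 at 4, 8 and 16 h. With MPA its changes were -0.70 at 4 h and -0.71 at 8 h, and the 4 h call was lost without replicate 1 of MPA (-0.51, adjusted p = 0.107) or replicate 3 of the vehicle (-0.50, adjusted p = 0.134). MIR196B, with the same seed, had changes of -0.76, -0.55 and, not called, -0.24 with P4 and of -0.71 (adjusted p = 0.137 with only the compared arrays in the fit), -0.63 and -0.60 with MPA. MIR196A1, which encodes the same mature microRNA as MIR196A2 from another HOX cluster, was not called, with -0.17 for P4 at 4 h.

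MIR205, a gene of basal epithelium, had 7.79, 7.60 and 7.77 after 8 h of P4, against 8.66, 8.66 and 8.57 with vehicle. The arrays did not overlap, and the change was -0.91 with P4 and -0.91 with MPA at 8 h. At 4 h it was -0.12 with P4, not called, and -0.47 with MPA. At 16 h it was -0.58 and -0.46.

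MIR449C and MIR449A, of a family known for roles in multiciliated cells, lie in CDC20B. MIR449C had 6.73, 7.05 and 6.78 after 4 h of P4, against 7.07, 7.51 and 7.66 with vehicle, and 6.02, 6.05 and 6.01 after 16 h of P4, against 7.52, 7.37 and 7.06 with vehicle. The 4 h arrays lay just below vehicle and those at 16 h well below it. Changes were -0.56 (not called), -1.13 and -1.29 with P4 and -0.86 (adjusted p = 0.162 with only the compared arrays in the fit), -1.22 and -1.42 with MPA, at 4, 8 and 16 h. MIR449A had a change of -1.04 with MPA at 16 h (adjusted p = 0.00202; 0.109 with only the compared arrays in the fit) and of -0.72 with P4 at 16 h (adjusted p = 0.0372). That P4 call was lost without any of the 3 P4 arrays (adjusted p between 0.0788 and 0.104) and without replicate 1 (adjusted p = 0.0505) or 3 (adjusted p = 0.233) of the vehicle. MIR449B, which lies between MIR449A and MIR449C, was measured and called in 0 comparisons. Its change at 16 h was -0.28 with P4 (adjusted p = 0.139) and -0.02 with MPA (adjusted p = 0.951).

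MIR22HG, the noncoding host of miR-22, was a late increase. It had 6.19, 6.28 and 6.53 after 4 h of P4, against 6.21, 5.98 and 6.24 with vehicle, which overlapped. It had 7.20, 7.12 and 7.21 after 16 h of P4, against 6.22, 5.94 and 6.10 with vehicle, far apart. Changes were 0.19, 0.82 and 1.09 with P4 and 0.34, 0.80 and 0.92 with MPA, those at 4 h not called, and the change with P4 at 16 h minus that at 4 h was 0.90 (adjusted p = 0.00156). Of the other HG genes, MIR9-3HG was lower with P4 at 4 h (-0.54) and 8 h (-0.29) and with MPA at 4 h (-0.36). MIR99AHG was lower at 16 h with P4 (-0.58) and MPA (-0.44). MIR550A3HG was lower at 16 h with P4 (-0.52) and MPA (-0.42) and at 4 h with MPA (-0.46). MIR600HG was higher with P4 at 4 h (0.82), MIR924HG with P4 at 16 h (0.47) and MIR7-3HG with MPA at 4 h (0.45). MIR497HG was lower with MPA at 8 h (-0.45). All of these were named after their values were seen.

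MIR3671 was the only member called higher at one time and lower at another under P4. It had 6.22, 6.57 and 6.21 after 4 h of P4, against 4.77, 5.56 and 6.05 with vehicle, and 4.35, 4.47 and 4.26 after 16 h of P4, against 6.39, 6.41 and 5.75 with vehicle. The P4 arrays were above all vehicle arrays at 4 h and below them at 16 h. The lowest 4 h vehicle value, 4.77, came from replicate 1, the array with the widest median shift over the members. The 4 h call of MIR3671 (adjusted p = 0.00897) was not retested with arrays left out. Its P4 change was 0.87, -1.03 and -1.83 over the 3 times, and its MPA change was -0.02 (not called), -0.93 and -1.81. At 16 h of P4 all arrays were at or under the 30th percentile, so the gene was at least 3.19-fold lower than with vehicle. Vehicle levels were lower after overlay, with a change of -1.95 at 4 h from 7.20, 7.39 and 7.65 at 0 h. MIR3671 lies inside JAK1, a cytokine receptor kinase gene, which read 0.11 with P4 at 4 h and 0.12 at 16 h without a call. At 8 h JAK1 was called higher with P4 (0.26, adjusted p = 0.00331) and MPA (0.25, adjusted p = 0.00396), when MIR3671 was lower with both.

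Some calls with larger log2 changes came from single members with little support. MIR518A2 (-0.93, adjusted p = 0.0442) and MIR518B (-0.85, adjusted p = 0.0397) were lower with P4 at 4 h. Neither held without replicate 1 of the 4 h vehicle (adjusted p = 0.418 and 0.209) or without replicate 1 or 2 of P4 (adjusted p between 0.0755 and 0.332), and MIR518B also not without replicate 2 of the vehicle (adjusted p = 0.0817). MIR518D was called with P4 at 16 h (adjusted p = 0.0117), where all its P4 arrays were at or under the 30th percentile and its vehicle mean was no higher than that percentile of the P4 arrays, so no size is given. The call was lost without replicate 2 of P4 (adjusted p = 0.0678) or replicate 1 of the vehicle (adjusted p = 0.0746). MIR96 was higher with P4 at 16 h (0.96, adjusted p = 0.00137), by at least 1.07-fold since all vehicle arrays were at or under the percentile.

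MIR612, whose position lies within NEAT1, had 7.43, 7.40 and 7.65 after 16 h of P4, against 6.58, 6.94 and 6.15 with vehicle. The groups did not overlap, and the change was 0.93 with P4 and 0.83 with MPA (adjusted p = 0.00802; 0.089 without replicate 2 of MPA and 0.0777 without replicate 3 of the vehicle). MIR3667 was higher with MPA at 8 h (0.83) and 16 h (0.82) and with P4 at 8 h (0.60) and 16 h (0.71). MIR3187 was higher with E2+P4 than with E2 (0.84). MIR4435-1 was at least 1.18-fold higher in that comparison (adjusted p = 0.00105), since all its E2 arrays were at or under the 30th percentile. MIR1204 was lower with E2+P4 than with E2 (-0.92, adjusted p = 0.00874), a call lost without replicate 3 of E2 (adjusted p = 0.0656). MIR1206 was also called lower there (adjusted p = 0.0372), but all its E2+P4 arrays were at or under the 30th percentile. Its E2 mean was no higher than that percentile, so no size is given. The MIR1206 call was lost without any of 4 arrays (adjusted p between 0.0895 and 0.208). MIR3198-1 was lower with E2+MPA than with E2 (-1.10).

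**Figure D3:**
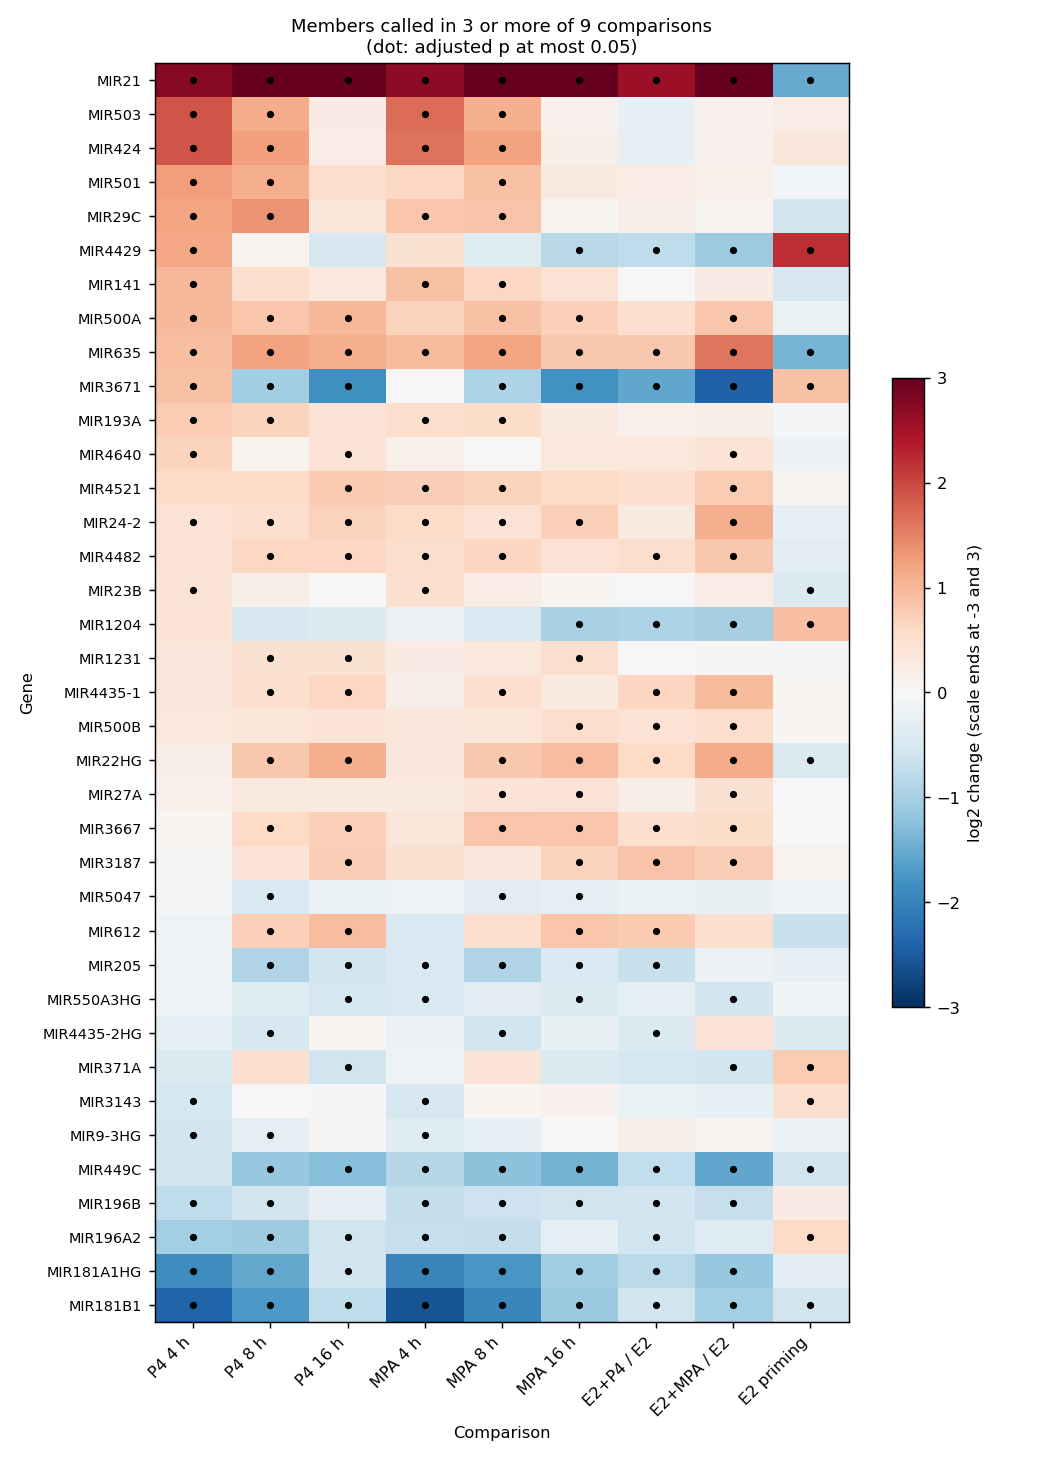
Colours show the log2 change of the 37 members called in at least 3 of 9 comparisons (blue lower, red higher, scale ending at -3 and 3), and dots mark an adjusted p of at most 0.05. MIR21 and MIR635 are higher in all 8 progestin columns and lower with E2 priming, MIR424 and MIR503 are high only in the 4 and 8 h columns, and MIR3671 turns from red to blue over P4 time.

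Between disjoint arrays, lists of calls were partly shared. The same overlaps were not counted over all clusters. Whether members shared more or fewer calls than other features was therefore not tested. Of the 21 members higher with P4 at 4 h and the 21 at 8 h, 10 were the same (47.6% of each list), and of the 14 and 10 lower members 5 were shared (35.7% and 50% of the lists). Between 4 and 16 h, 5 of 21 higher members were shared (23.8% of each list) and 3 lower members (21.4% and 25%). With MPA, 10 higher members were shared between 4 and 8 h (62.5% of 16 and 43.5% of 23) and 3 between 4 and 16 h (18.8% of 16 and 15.8% of 19). Of the lower members with MPA, 6 were shared between 4 and 8 h (66.7% of 9 and 60% of 10) and 6 between 4 and 16 h (66.7% of 9 and 50% of 12). The difference in change between 16 and 4 h was called for 12 members with P4 (beside 6.71% of all clusters), 7 upward and 5 downward (beside 3.43% and 3.28%). With MPA it was called for 8 (beside 4.38%), 3 upward and 5 downward (beside 2.05% and 2.33%). Without replicate 3 of the 16 h vehicle the P4 count was 19.

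The direct test of MPA against P4 at matched dose and time called no member. The count was 0 of 636 at 4, 8 and 16 h by limma, with 112, 13 and 54 members at an unadjusted p under 0.05, and 0.0145%, 0.00242% and 0.0121% of all clusters called. Without replicate 2 of the 4 h MPA arrays the 4 h count was 1. The 95% interval of the difference lay within 2-fold in both directions for 526 members at 4 h, 601 at 8 h and 575 at 16 h, with a median width of 0.419 log2 to each side. These p-values were adjusted over all clusters in each of the 3 pairs of groups.

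For MIR21 the difference of MPA from P4 was -0.04 at 4 h (95% interval -0.58 to 0.51), -0.28 at 8 h (-0.83 to 0.26) and 0.04 at 16 h (-0.50 to 0.59). For MIR181B1 it was -0.17 (-0.54 to 0.19), -0.23 (-0.59 to 0.13) and -0.35 (-0.71 to 0.01), and for MIR181A1HG -0.10 (-0.41 to 0.20), -0.19 (-0.50 to 0.11) and -0.46 (-0.77 to -0.15; adjusted p = 0.405). For MIR424 it was -0.23 (-0.47 to 0.00) at 4 h and -0.03 (-0.27 to 0.20) at 16 h. These intervals leave room for smaller differences between the 2 progestins.

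With fresh E2 in the overlay, both progestins still moved MIR21, MIR181B1 and MIR181A1HG. E2+MPA against E2 called 43 members (beside 19.8% of all clusters), 29 higher and 14 lower (beside 8.04% and 11.8%). E2+P4 against E2 called 26 (beside 13.9%), 12 higher and 14 lower (beside 5.95% and 7.92%). With the interquartile range of each array as a covariate the E2+MPA count was 71, with 35 higher and 36 lower. MIR21 had 10.01, 10.35 and 10.11 with E2+MPA and 8.63, 9.56, 8.90, 8.93 and 9.64 with E2+P4, against 6.21, 7.18 and 6.32 with E2. All progestin arrays were higher than all E2 arrays. The log2 change was 3.59 ± 0.27 with E2+MPA (12-fold; adjusted p = 1.45e-12) and 2.56 ± 0.24 with E2+P4 (5.90-fold; adjusted p = 4.01e-10).

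MIR181A1HG had 5.92, 6.33 and 6.26 with E2+MPA and 6.55, 6.30, 6.73, 6.55 and 6.37 with E2+P4, against 7.29, 7.39 and 7.25 with E2, without overlap. Its changes were -1.14 with E2+MPA and -0.81 with E2+P4. MIR181B1 had a change of -1.02 with E2+MPA and of -0.56 with E2+P4 (adjusted p = 0.0134), a call that was lost without replicate 2 (adjusted p = 0.120) or 3 (adjusted p = 0.0635) of E2. MIR424 and MIR503, measured with fresh E2 at 16 h only, were not called in either comparison with E2. Of the members called with P4 at 16 h, 8 of 21 higher and 6 of 12 lower were also called with E2+P4 (38.1% and 50%, and 66.7% and 42.9% of the E2+P4 lists). For MPA these were 9 of 19 and 8 of 12 (47.4% and 66.7%, and 31.0% and 57.1% of the E2+MPA lists). These overlaps, too, were not counted over all clusters.

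Fresh E2 itself called 0 members against vehicle at 16 h by limma (26 at an unadjusted p under 0.05, and 0.00483% of all clusters called). The difference of the progestin change between overlays with and without fresh E2 had 0 calls for P4 (29 at an unadjusted p under 0.05; 0.00967% of clusters) and 0 for MPA (31; 0.234%). For MIR21 that difference was -0.81 for P4 (95% interval -1.54 to -0.08; adjusted p = 0.796) and 0.17 for MPA (-0.60 to 0.94; adjusted p = 0.999).

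The direct test of E2+MPA against E2+P4 at 16 h called 12 members (beside 6.08% of all clusters), 9 higher and 3 lower with E2+MPA (beside 2.66% and 3.42%). MIR21 was higher by 1.02 ± 0.24 (2.03-fold; adjusted p = 0.00538), and the lowest E2+MPA array lay above the highest E2+P4 array. MIR24-2 had 7.34, 7.71 and 7.62 with E2+MPA, against 6.42, 6.96, 6.60, 6.65 and 6.98 with E2+P4, a difference of 0.83 (adjusted p = 1.09e-05). MIR4435-2HG, a noncoding host gene, had 10.15, 10.28 and 10.05 with E2+MPA, against 9.08, 9.35, 9.03, 9.58 and 9.51 with E2+P4, a difference of 0.85. In both genes the groups were apart. MIR635 (0.81), MIR554 (0.74), MIR22HG (0.51), MIR205 (0.51), MIR424 (0.37) and MIR503 (0.36) were higher, and MIR449C (-0.83) and MIR3122 (-0.72) were lower. The remaining call, MIR3671, was at or under the 30th percentile on every array of both groups, so its direction and size are left unread. Against E2, MIR4435-2HG was lower with E2+P4 (-0.425, adjusted p = 0.0397) and was not called with E2+MPA. Against vehicle at 8 h, MIR4435-2HG was lower with P4 (-0.49) and with MPA (-0.61).

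This comparison rested on few arrays. Without replicate 2 of E2+MPA 5 members were called, with only the compared arrays in the fit 0, and with the interquartile range as a covariate 19 (15 higher and 4 lower). The adjusted p of MIR21 was 0.0649 without that array and 0.11 with the compared arrays. Without that array MIR635 (0.66, adjusted p = 0.162), MIR554 (0.56, adjusted p = 0.212) and MIR3122 (-0.68, adjusted p = 0.0966) were also lost, MIR635 further without replicate 3 of E2+MPA (adjusted p = 0.0722), MIR3122 without replicate 1 of E2+MPA (adjusted p = 0.0668) and MIR554 without replicate 1 of E2+P4 (adjusted p = 0.0538). The E2+P4 arrays of MIR21 fell between 8.63 and 9.64, a wider range over 5 arrays than over the 3 of each other progestin group at 16 h.

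**Figure D4:**
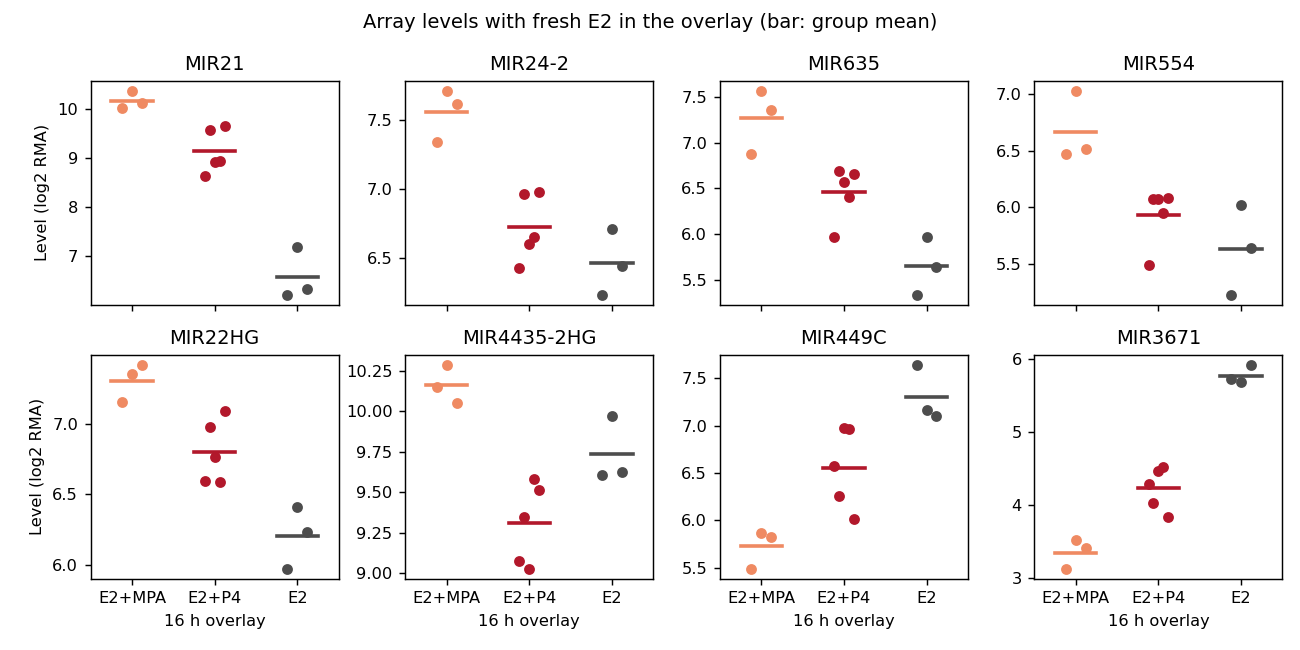
Points are arrays and bars are group means on the log2 scale for MIR21, MIR24-2, MIR635, MIR554, MIR22HG, MIR4435-2HG, MIR449C and MIR3671 after 16 h of E2+MPA, E2+P4 or E2. E2+MPA and E2+P4 arrays do not overlap in any panel, with MIR21 at 10.01 to 10.35 against 8.63 to 9.64, but those of MIR3671 are all at or under the 30th percentile.

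E2 priming, tested as E2p against unprimed cells after 16 h of vehicle, called 26 members (beside 7.5% of all clusters), 12 higher and 14 lower (beside 2.55% and 4.95%). The arrays of E2p at 16 h of vehicle serve in the progestin comparisons too. MIR4429 had 7.08, 6.65 and 6.51 in E2p cells, against 4.24, 4.74 and 4.63 in unprimed cells, and was the strongest increase (log2 change 2.21 ± 0.19, adjusted p = 1.34e-10). The groups were apart by more than a log2 unit. The unprimed arrays lay near the 30th percentile, which was between 4.47 and 4.60 over the arrays, so the size of this change is uncertain. GREB1, an early estrogen-responsive gene whose span holds MIR4429, had a change of 3.43. The annotation used here did not give the strand of GREB1, so whether both are read the same way was not settled.

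MIR4429 also moved with progestin. It had 7.54, 7.44 and 7.15 after 4 h of P4, against 5.72, 6.28 and 6.63 with vehicle, which did not overlap. Its changes over the 3 times were 1.16, 0.10 and -0.48 with P4, where the first was called, and 0.45, -0.37 and -0.83 with MPA, where the last was called. The P4 change at 16 h minus that at 4 h was -1.64 (adjusted p = 7.14e-05). GREB1 had a change of 0.36 with P4 at 4 h and, not called, of -0.11 at 16 h. With fresh E2, MIR4429 had a change of -1.10 with E2+MPA and of -0.76 with E2+P4.

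MIR21 was lower with E2 priming. It had 6.67, 6.27 and 5.68 in E2p cells, against 7.67, 7.76 and 7.75 in unprimed cells. The unprimed arrays were all higher and close together, and the change was -1.52 ± 0.27 (2.87-fold lower; adjusted p = 0.000129). MIR635 had a change of -1.40, MIR554 of -1.18, and the neighbours MIR27B and MIR23B of -0.94 and -0.44. MIR181B1 had a change of -0.56 (adjusted p = 0.0494), a call lost without replicate 2 or 3 of E2p or any of the 3 unprimed arrays (adjusted p between 0.0722 and 0.359). It was also lost under 4 alternatives, which were the compared arrays only, the replicate block, no filter and the interquartile range as a covariate, the last with the highest adjusted p (-0.39, adjusted p = 0.17). MIR181A1HG was not called (-0.32).

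Further decreases with priming were MIR4320 (-1.37) and MIR374A (-1.14), both at or under the 30th percentile on all E2p arrays, so that they were at least 1.07-fold and 1.11-fold lower. MIR4320 was lost without replicate 2 (adjusted p = 0.061) or 3 (adjusted p = 0.0905) of E2p or replicate 2 of the unprimed cells (adjusted p = 0.143), and MIR374A without replicate 3 of E2p (adjusted p = 0.0999) or replicate 1 of the unprimed cells (adjusted p = 0.075). MIR3159 (1.21), MIR1204 (0.895, adjusted p = 0.0422), MIR3671 (0.87) and MIR371A (0.76) were higher. MIR1204 was lost without replicate 1 or 2 of E2p or any of the 3 unprimed arrays (adjusted p between 0.0667 and 0.146). MIR371A was lost without replicate 1 or 3 of E2p or replicate 1 of the unprimed cells (adjusted p between 0.0535 and 0.0922). MIR3671 was lost without replicate 1 (adjusted p = 0.055) or 2 (adjusted p = 0.0656) of E2p. The priming count was 16 without replicate 2 of the E2p arrays, 12 without replicate 3, 15 without replicate 1 of the unprimed cells and 13 without replicate 2. Its split of 12 higher and 14 lower became 7 and 15 with the interquartile range as a covariate.

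Over the 14 groups MIR21 was highest with E2+MPA (mean 10.16), followed by P4 at 8 h (9.69), MPA at 16 h (9.62), P4 at 16 h (9.57), MPA at 8 h (9.41), E2+P4 (9.13), P4 at 4 h (9.12) and MPA at 4 h (9.08). Neighbours in this run overlapped except E2+MPA and the group below it. All 8 progestin groups lay above unprimed cells (7.73), which lay above E2p vehicle at 0 h (7.03) without overlap. E2 (6.57) and vehicle at 4, 8 and 16 h followed, each overlapping the next. MIR181B1 was highest with vehicle at 4 h (8.21) and in unprimed cells (8.13), and lowest with P4 at 8 h (6.09), MPA at 8 h (5.87), P4 at 4 h (5.79) and MPA at 4 h (5.62). MIR181A1HG had its lowest mean with MPA at 8 h (5.67) and its highest with vehicle at 4 h (7.75).

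The named genes whose 14 group means followed those of MIR21 most closely were RAB11FIP1, an adaptor of recycling endosomes (Pearson's r = 0.993), the transcription factor gene CSRNP1 (0.982), the kinase anchor gene AKAP13 (0.977), the tetraspanin gene CD9 (0.975) and S100A10 (0.975). Those closest to MIR181A1HG were MIR181B1 (0.983), CCDC134 (0.946), the fucosyltransferase gene FUT2 (0.941), the telomere protein gene TINF2 (0.935) and FBXO48 (0.933). These describe 14 groups whose arrays share E2 pretreatment and vehicle controls.

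A RefSeq host on the same strand was found for 339 members, and for 189 of them a host was measured (168 hosts). The median Pearson correlation of member and host over the 14 group means was 0.193, and it was 0.635 for the 27 pairs whose member varied by at least 1 log2. With P4 at 16 h, the member was called in 10 of the 189 pairs (5.29%) and the host in 67 (35.4%), beside 15.8% of all clusters and 25.4% of named genes, with 5 pairs called in the same direction and 0 in opposite ones. With P4 at 8 h, 3 pairs were called the same way and 1 the opposite way.

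MIR181B1 and MIR181A1HG were the closest of the pairs named here (0.983). MIR449C and CDC20B correlated at 0.897, and CDC20B read -0.03 with P4 at 4 h, not called, and -1.53 at 16 h. CDC20B levels lay between 5.94 and 6.19 after 16 h of P4, against 7.48 to 7.76 with vehicle, and between 7.42 and 7.59 after 4 h of P4, against 7.08 to 7.82 with vehicle. CDC20B was low at 16 h, and at 4 h it overlapped vehicle. MIR554 and TUFT1, an enamel matrix gene, correlated at 0.875, and TUFT1 had a change of -1.03 with priming and of 1.07 with E2+MPA, beside -1.18 and 1.04 for MIR554. MIR27B and AOPEP correlated at 0.911. MIR21 and VMP1 correlated at 0.745 with ranges of 3.95 and 0.35, and MIR3671 and JAK1 at 0.038 with ranges of 4.06 and 0.64.

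**Figure D5:**
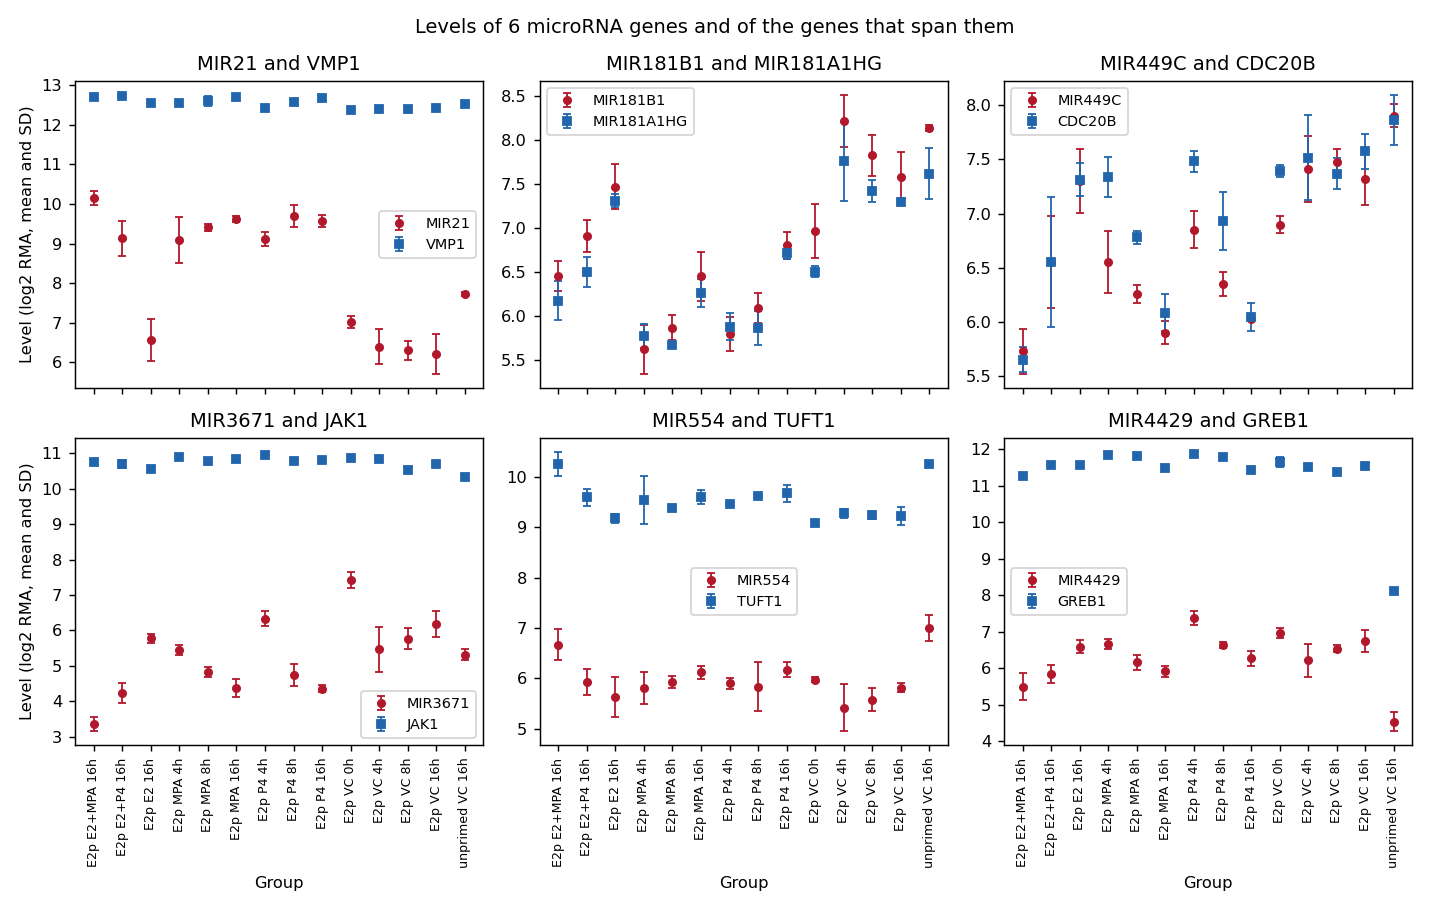
Group means with SD on the log2 scale for 6 microRNA genes (circles) and the genes that span them (squares) over the 14 groups on the horizontal axis. VMP1 and JAK1 are nearly flat while MIR21 and MIR3671 range over 3.95 and 4.06, and MIR181A1HG tracks MIR181B1. Heights of different genes are not comparable, since probes differ.

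Neighbours within 10 kb on the same strand were measured for 149 pairs. At most 3 pairs had both members called in a comparison, and 0 were called in opposite directions. With P4 at 4 h, either member was called in 25 pairs. Both were called, in the same direction, in 3 of them, MIR503 with MIR424, MIR500A with MIR501 and MIR23B with MIR27B. With P4 at 16 h either was called in 15 pairs and both in 1, MIR449A with MIR449C. With MPA at 16 h these counts were 21 and 3, MIR24-2 with MIR27A, MIR449A with MIR449C and MIR500A with MIR500B. In most pairs with a call, only a single member was therefore called. Neighbouring pairs of other features were not counted.

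Of 31 genes listed for microRNA processing and decay, 20 were annotated and 19 tested, and with P4 1, 2 and 3 of them were higher at 4, 8 and 16 h and 0, 1 and 2 lower. Over all named genes 6.88%, 9.85% and 13.4% were higher and 5.43%, 11.4% and 12% lower. Their median change was -0.01, 0.02 and 0.05 at 4, 8 and 16 h, beside -0.03, 0.00 and -0.01 over all clusters. ZC3H12A, an RNase that cleaves precursor microRNAs, changed by 1.33, 1.30 and 0.93 with P4 and 1.26, 1.26 and 0.98 with MPA. Its levels lay between 10.00 and 10.07 after 4 h of P4, against 8.61 to 8.86 with vehicle. DGCR8, the partner of the nuclear RNase DROSHA, was higher at 16 h with P4 (0.74) and MPA (0.54), and TARBP2, a partner of DICER1, was lower with P4 at 8 h (-0.40) and 16 h (-0.26).

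Of 16 transcripts listed as known targets of miR-21, 10 were tested. At 4, 8 and 16 h of P4 there were 4, 6 and 4 higher and 0, 1 and 1 lower, beside 6.88%, 9.85% and 13.4% of named genes higher and 5.43%, 11.4% and 12% lower, with a median change of 0.01, 0.43 and 0.18, beside -0.03, 0.00 and -0.01 over all clusters. RHOB, a small GTPase gene, changed by 1.11, 0.84 and 0.96 with P4, SPRY2, an inhibitor of growth factor signalling, by 0.86, 0.84 and 1.29, TPM1, a tropomyosin gene, by 0.53, 0.46 and 0.78, and the Notch ligand gene JAG1 by 2.59, 1.52 and, not called, 0.22. PDCD4, an inhibitor of translation, was lower at 16 h. PDCD4 levels lay between 10.05 and 10.19 after 16 h of P4, against 10.49 to 10.59 with vehicle (change -0.41, adjusted p = 0.0257), and between 9.33 and 9.48 with E2+MPA, against 10.20 to 10.52 with E2 (change -1.0, adjusted p = 2.91e-07). At 4 h of P4, PDCD4 read 0.00 and was not called (adjusted p = 0.996). Any link between miR-21 and the levels of these listed transcripts was not tested.

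Over 4, 8 and 16 h of vehicle against 0 h, 13 of 636 members were called (2.04%, F-statistic), and 62 had an unadjusted p under 0.05. That share was near the 1.94% of all clusters. Samples of all lengths were collected together, but 72 h of pretreatment is given before every overlay length. The overlay itself cannot be told apart here from time in E2 or in culture. The count was 7 without replicate 2 at 0 h. MIR4521 had 4.40, 5.03 and 4.88 at 0 h, 6.33, 7.34 and 7.21 at 4 h, 7.41, 7.47 and 7.47 at 8 h, and 7.25, 7.62 and 6.96 at 16 h. All later arrays were higher than those at 0 h, with changes of 2.19, 2.68 and 2.51. MIR3143 had 10.73, 10.32 and 10.61 at 0 h and was lower later, with changes of -0.87, -1.26 and -1.09. The other 11 were MIR106B, MIR181A1HG, MIR181B1, MIR205, MIR23B, MIR330, MIR3671, MIR424, MIR503, MIR548AA1 and MIR652. Changes with progestin were measured against vehicle of the same length.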

How the data were processed

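The deposited table held log2 values, which the authors obtained by RMA from 44 Affymetrix Gene ST arrays (the submitters' notes name both RMA and limma, with no version). Gene 1.0 ST is the design named by labels and methods, but cluster identifiers matched the Gene 2.0 ST annotation, on which names rest. A symbol with several clusters (124 of the 1098 microRNA symbols before the filter) took that with the highest mean. Clusters at or below the 30th percentile on all but 2 or fewer arrays were left out, and 14 group means were fitted in 1 model by limma 3.58.1 (R 4.3.3) (30 residual degrees of freedom, two-sided moderated t-statistics or F-statistics, Benjamini-Hochberg over 41374 clusters). Errors are SE of the fit or SD over arrays; the number of arrays limits precision. Named members were MIR21, MIR181B1 and MIR181A1HG, the 5 largest calls in each direction, their families and hosts, 5 genes of each list, and the 5 most alike. Others, such as members called at all times or next to a named one, were added after values were seen. A gene at or under the percentile on every array of a group is given as a bound, a rule also added then. Members and lists were chosen with earlier results of these data known. The fit was tested on simulated data. The alternatives were compared arrays only, the interquartile range as covariate, the replicate block, other filters and each array left out.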

Additional observations from a re-analysis of the deposited data

Results flagged for a closer look

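Replicate 1 of E2p E2+P4 at 16 h stood apart from the other 4 arrays of its group at 2 of the 40 members examined, MIR554 (5.49, with the next at 5.95) and MIR2909 (9.34, with the next at 8.95). Chance flags about 1 in 20 groups.

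The change against vehicle with P4 differed between 16 and 4 h, given as the change at 16 h minus that at 4 h, for MIR181B1 (1.64), MIR181A1HG (1.29), MIR612 (1.03), MIR2909 (1.00), MIR22HG (0.90), MIR3671 (-2.70), MIR424 (-1.66), MIR4429 (-1.64), MIR503 (-1.64) and MIR604 (-0.74). With MPA it differed for MIR181B1 (1.47), MIR612 (1.28), MIR181A1HG (0.94), MIR3671 (-1.80), MIR503 (-1.54), MIR424 (-1.45), MIR4429 (-1.28) and MIR4267 (-0.60). The call of MIR612 with P4 was lost without any of 9 arrays (adjusted p between 0.0577 and 0.146) and with MPA without replicate 2 of MPA or replicate 3 of vehicle at 16 h (0.0591 and 0.0553). MIR604 was lost without any of 6 arrays (0.0528 to 0.0877), MIR4267 without any of 8 (0.0547 to 0.121), and MIR2909 without replicate 1 of the 4 h vehicle (0.068).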

How the results depend on the processing

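Directions of the calls of named members held under every alternative run, and of these calls 38 were lost with only the compared arrays in the fit, 5 with the interquartile range covariate, 6 with no filter, 0 with the 50th percentile filter and 3 with the replicate block. Leaving out 1 array lost 89 named calls over all arrays and gained 1, MIR181B1 lower with E2+MPA than with E2+P4 (-0.53, adjusted p = 0.0481 without replicate 1 of E2+P4; -0.46 and 0.0863 with it). Signs turned for 7 differences that were not called. MPA against P4 for MIR21 at 4 h (-0.04) was 0.21 with the interquartile range covariate. Leaving out 1 array it ran between -0.37 and 0.15, and at 16 h between -0.042 and 0.111. The E2 overlay change ran between -0.267 and 0.032 for MIR181B1 and between -0.031 and 0.040 for MIR181A1HG, and the MPA change with against without fresh E2 between -0.06 and 0.48 for MIR21, -0.033 and 0.266 for MIR181B1 and -0.179 and 0.027 for MIR181A1HG.

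With only the compared arrays in the fit, the counts of called members for priming were 10, for P4 at 4 h 7, and 6 and 11 for MPA at 4 and 16 h, 0 for E2+MPA against E2+P4, 2 for the MPA change at 16 against 4 h and 2 for vehicle over time, where fewer arrays estimate the spread. With the interquartile range covariate they were 55, 52 and 57 for P4 at 4, 8 and 16 h, 54 and 57 for MPA at 8 and 16 h, 44 for E2+P4 and 71 for E2+MPA against E2, 19 for E2+MPA against E2+P4, 24 and 17 for the P4 and MPA changes at 16 against 4 h and 30 for vehicle over time; the cause was not tested. The priming split was 3 and 7 with the compared arrays only and 7 and 17 with no filter. With a threshold of 0.0001 for the adjusted p, 9, 10 and 4 members were called with P4.

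Leaving out 1 array gave counts of 12 to 30 for priming, 22 to 48, 22 to 31 and 24 to 34 for P4, 17 to 57, 26 to 31 and 22 to 48 for MPA, 0 to 1 for MPA against P4 at 4 h and 0 at 8 and 16 h, 0 for the E2 overlay, 19 to 31 for E2+P4, 32 to 41 for E2+MPA, 5 to 13 for E2+MPA against E2+P4, 10 to 19 and 7 to 11 for the changes with time, 0 for those with fresh E2 and 7 to 17 for vehicle.

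With the replicate number as a block, counts were 25 for E2 priming; P4 gave 41, 31 and 35, and MPA 22, 36 and 34, with 12 for E2+MPA against E2+P4. The numbers did not pair the samples: deviations of same-numbered arrays correlated at a median of 0.0159 (-0.553 to 0.55), against -0.0124 for different numbers, and 18 of 42 arrays were nearest to their own number.

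Members near the 30th percentile have little signal over background, so changes there are bounds. Mature microRNA was not measured and probe-level background was not examined.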
